A study of Oryctolagus cuniculus with 8 samples.

Results

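In rabbits with a surgically made congenital diaphragmatic hernia (CDH), 21 of 23669 gene IDs had lung RNA levels that set all 3 placebo CDH libraries apart from the other 5, while treprostinil-exposed CDH and control lungs stayed close to each other. Of these, 12 were higher and 9 were lower in placebo CDH lungs. They were chosen from the measured values themselves. Levels were taken as CPM, the counts of an ID per 1000000 counts of its library. An ID had to reach a group mean of 5 CPM in at least 1 group. The lowest placebo CDH library had to lie 25% or more above the highest other library, or the highest placebo CDH library 20% or more below the lowest other one, a distance called the gap here. The higher of the exposed CDH and control means had to exceed the other by less than 25%. A run of 37 consecutively numbered IDs was left out beforehand. The opposition between placebo CDH and the other 2 groups is therefore the definition of the 21 IDs and not a finding about them, and no test of it is given.

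CDH is a defect of the diaphragm through which abdominal organs press on the growing lung, so that airways and vessels stay few and the walls of small pulmonary arteries thicken. Treprostinil is a stable analogue of prostacyclin. It acts on prostacyclin receptors of vascular smooth muscle, where a rise in cyclic AMP relaxes the vessel and restrains growth of the muscle layer, and it is used against pulmonary hypertension. The comparison addressed here is which RNA levels differed in placebo CDH lungs and stood near the control level in CDH lungs after treprostinil.

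The groups were 3 CDH lungs with placebo (labelled unexposed), 3 CDH lungs with treprostinil, which was administered on gestational day 24 (term is day 31), and 2 control lungs with placebo and without CDH. No source used here gives the strain, the dose, the age at which lungs were taken, or whether libraries come from separate animals, so any p-value measures only the spread between these libraries. Each title also carries a code number: 61 for placebo CDH replicates 1 and 2, 56 for placebo CDH replicate 3, 81 for all exposed CDH libraries and 83 for both controls. What the code stands for is not stated, and since no code spans 2 groups, code and group cannot be told apart. Library totals ran from 9367924 counts (placebo CDH replicate 2) to 22060353 (exposed CDH replicate 2). The table lists Ensembl rabbit IDs without symbols and 0 IDs could be paired with one, so the 21 are described by level and pattern, the lung could not be checked against marker genes, and the roles of the IDs are not given.

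Such IDs were few. Among the 11437 IDs outside the run that reached 5 CPM, placebo CDH libraries lay apart from all others by this gap in 18 higher IDs (0.157%) and 17 lower IDs (0.149%). Exposed CDH and control means were less than 25% apart in 60% of these 35 IDs, which are the 21 described here, against 75.4% of all 11437 IDs. In the other 14 the exposed mean lay between placebo CDH and control in 5 and beyond control in 9. By the same thresholds, 61 IDs set exposed CDH lungs apart while placebo CDH resembled control (21 higher and 40 lower), and 202 IDs set the control lungs apart while both kinds of CDH lung resembled each other (127 higher and 75 lower). The control group holds 2 libraries and the CDH groups 3 each, so these counts were not compared by a test.

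**Figure D1:**
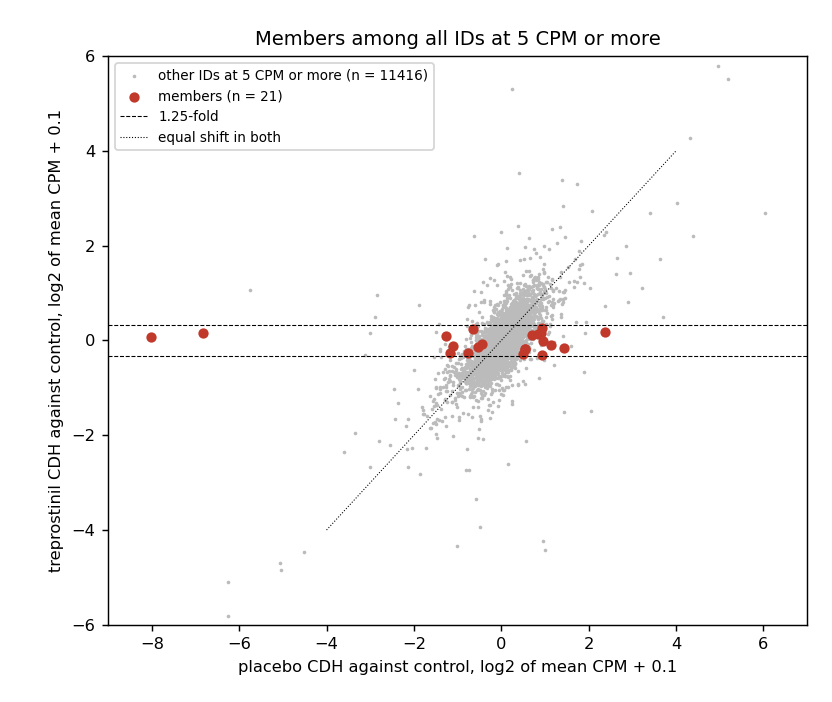
Each point is 1 gene ID with a group mean of 5 CPM or more, with the log2 ratio of placebo CDH to control on the horizontal axis and of treprostinil CDH to control on the vertical axis, both of mean CPM plus 0.1. The 21 members (red) lie between the dashed lines, which mark a 25% excess of either group, with 2 of them far to the left, among 11416 other IDs (grey, 3 of them outside the axes).

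The members ranked by the size of the gap, which is the ratio of the 2 libraries nearest each other across it, comprised a pair with a far wider gap than the other 19. Gaps were 228 and 91.6 for the pair and 1.254 to 1.88 for the rest, with a median of 1.38 over all 21. Only 7 of the 21 had a gap of 1.5 or more. Of the 21, 12 stayed under 20 CPM in every library, 9 of the higher and 3 of the lower IDs. No share over all IDs was counted beside it. The median control level was 5.74 CPM for the higher and 25.98 CPM for the lower IDs, against 35.1 CPM over all 11437 IDs. Higher IDs could reach the required mean through placebo CDH lungs alone and lie lower in controls by the rule. Their low control median is therefore partly built in.

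**Figure D2:**
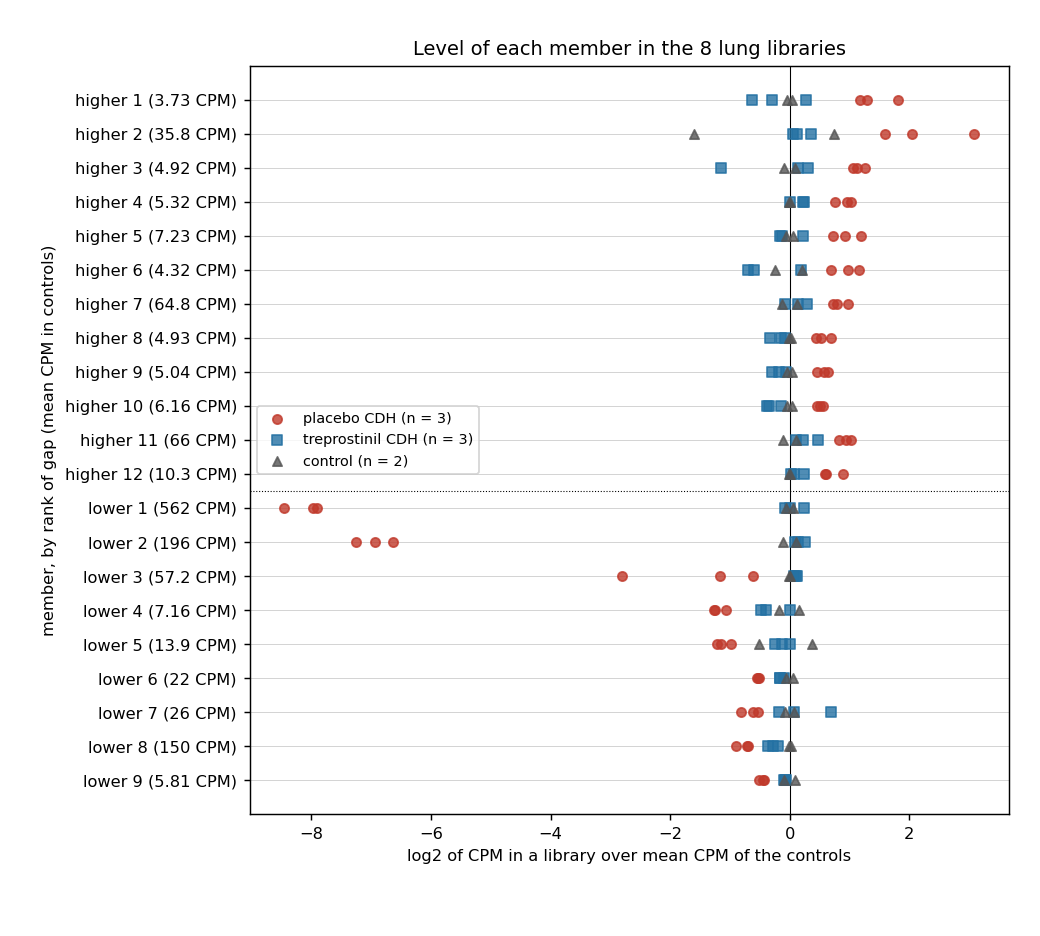
Rows are the 21 members, ranked by gap within the 12 higher and the 9 lower ones, with the mean CPM of the controls in brackets; points are the 8 libraries, as log2 of CPM over the control mean. Placebo CDH points (red circles) lie to one side of all exposed CDH (blue squares) and control (grey triangles) points in every row, which the choice of members requires, and they lie furthest away in the first 2 lower rows, where placebo CDH levels are 2.34 CPM or less.

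The first 2 lower IDs had very few counts in placebo CDH libraries and many in all others. ENSOCUG00000026762 stood at 2.23, 1.60 and 2.34 CPM in placebo CDH replicates 1 to 3, at 667, 566 and 532 CPM in exposed CDH replicates 1 to 3, and at 584 and 541 CPM in the controls. ENSOCUG00000025982 stood at 1.97, 1.28 and 1.60 CPM in placebo CDH lungs, at 216, 236 and 208 CPM after treprostinil, and at 212 and 181 CPM in the controls. All placebo CDH libraries were low and none of the other 5 came near them, while exposed and control values overlapped for both IDs. The control mean was 274 times the placebo CDH mean for the first and 121 times for the second. These levels rest on few counts on the placebo side (15 to 35 and 12 to 31 per library) and on far more elsewhere (8135 to 14634 and 3180 to 5197). No other member had a 5-fold gap, and among all 11437 IDs 3 had one in the lower direction and 0 in the higher direction.

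The excluded run of consecutively numbered IDs moved with this pair in the other direction. Its members together took 26052, 23536 and 20297 CPM in placebo CDH replicates 1 to 3, 6929, 7077 and 6928 CPM in exposed CDH replicates 1 to 3, and 6427 and 6317 CPM in the controls. The pair together took 4.20, 2.88 and 3.94 CPM in placebo CDH lungs, 883, 802 and 740.5 CPM in exposed CDH lungs, and 796 and 722 CPM in the controls. In both sums the same 3 libraries stand apart from the same 5. The part of the run in the pattern of the pair was not tested. No source used here gives the counting program or annotation release, so whether all libraries were counted alike could not be checked.

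**Figure D3:**
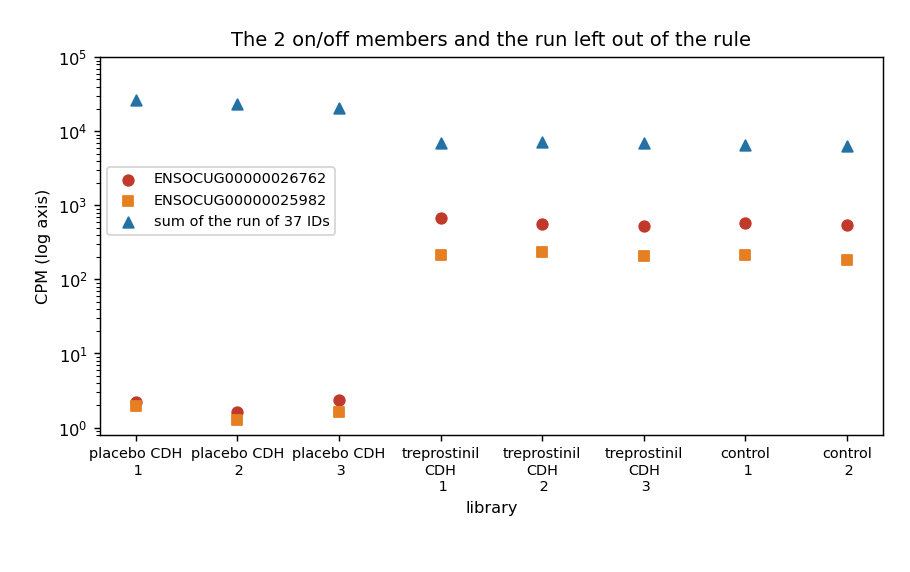
CPM on a log axis in each of the 8 libraries, for ENSOCUG00000026762 (circles), ENSOCUG00000025982 (squares) and the sum of the run of 37 IDs (triangles). The pair lies at 1.28 to 2.34 CPM in placebo CDH and at 181 to 667 CPM elsewhere, while the run lies at 20297 CPM or more in placebo CDH and at 7077 CPM or less elsewhere.

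The other 7 lower IDs differed far less, with control means 1.38 to 2.42 times the placebo CDH mean. The third of the lower IDs was the most uneven, at 8.21, 37.4 and 25.4 CPM in placebo CDH lungs, 62.5, 61.6 and 59.9 CPM in exposed CDH lungs and 57.6 and 56.8 CPM in controls. Its placebo CDH libraries spanned a 4.55-fold range, and the coefficient of variation (CV, the SD as a percent of the mean) was 61.96% there against 2.14% in exposed CDH lungs. The fourth stood at 2.99, 3.42 and 3.005 CPM in placebo CDH, 5.15, 7.21 and 5.43 CPM in exposed CDH and 7.99 and 6.34 CPM in controls. The fifth stood at 7.06, 5.98 and 6.28 CPM, 12.6, 11.7 and 13.9 CPM, and 9.76 and 18.0 CPM in the same order. Here the controls differed from each other more than the exposed lungs did, and enclosed all 3 exposed values. 

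The eighth of the lower IDs was the most abundant outside the pair. It stood at 92.6, 91.3 and 80.7 CPM in placebo CDH lungs, 132, 124 and 117 CPM in exposed CDH lungs and 152 and 149 CPM in controls. Its 3 groups did not overlap, and exposed CDH lungs took the middle place. The sixth had the same order with tight groups, at 15.3 ± 0.133, 20 ± 0.592 (SD, n = 3 each) and 22.02 ± 1.34 CPM (SD, n = 2) in placebo CDH, in treprostinil-exposed and in control lungs. The seventh had 1 library that stood out: exposed CDH replicate 1 at 41.9 CPM, above exposed replicates 2 and 3 at 22.8 and 27.4 CPM and the controls at 24.6 and 27.4 CPM, with placebo CDH at 14.7, 17.0 and 18.1 CPM. The ninth, at 4.33, 4.27 and 4.07 CPM in placebo CDH, 5.42, 5.48 and 5.56 CPM in exposed CDH and 6.16 and 5.46 CPM in controls, had the smallest gap of all 21 members.

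Among the 12 IDs higher in placebo CDH lungs, placebo CDH means were 1.42 to 5.21 times the control mean, with a median of 1.91, and 1.501 to 4.58 times the exposed mean, with a median of 1.71. ENSOCUG00000026348 had the widest gap, at 8.46, 13.02 and 9.15 CPM in placebo CDH, 4.51, 3.04 and 2.42 CPM in exposed CDH and 3.60 and 3.85 CPM in the controls. Its highest exposed library lay well under its lowest placebo CDH library, and the exposed values spread to both sides of the controls. ENSOCUG00000015772 had the largest ratio of means but also the widest spread, at 305, 147 and 108 CPM in placebo CDH lungs, 45.8, 39.0 and 37.4 CPM in exposed CDH and 11.8 and 59.9 CPM in the controls. Placebo CDH replicate 1 lay 2.83 times above replicate 3, and the controls differed 5.10-fold, which is the whole range of the 5 libraries outside the placebo group. The closeness of its exposed and control means (40.7 ± 4.43, SD, n = 3, and 35.8 ± 34.1 CPM, SD, n = 2) comes from a control mean between values on either side, and without either control replicate this ID no longer met the rule.

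The most abundant of the remaining higher IDs behaved evenly. The seventh stood at 128, 107 and 112 CPM in placebo CDH, 79.4, 71.5 and 61.6 CPM in exposed CDH and 70.2 and 59.4 CPM in the controls. The eleventh stood at 135, 117 and 127 CPM, 70.7, 91.6 and 77.0 CPM, and 70.9 and 61.04 CPM in the same order. In both, exposed and control libraries interleaved, with exposed means 1.09 and 1.21 times the control means. The third was scarce, at 10.3, 10.8 and 11.8 CPM in placebo CDH, 2.23, 6.07 and 5.43 CPM in exposed CDH and 5.21 and 4.63 CPM in the controls. Exposed CDH replicate 1 was the lowest of its 8 libraries.

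The other 7 higher IDs ranged from 6.73 to 19.1 CPM in placebo CDH libraries and from 2.68 to 12.3 CPM in the other libraries. The fourth and the fifth had placebo CDH means of 10.1 ± 0.968 and 14.1 ± 2.31 CPM against exposed means of 5.95 ± 0.524 and 7.18 ± 1.13 CPM (SD, n = 3 each), and the fifth had the closest agreement of exposed and control means of all 21, with a control mean of 7.23 ± 0.437 CPM (SD, n = 2). The eighth, the ninth and the tenth shared an order in which exposed CDH lungs were lowest. Their exposed means were 4.35, 4.47 and 5.05 CPM, their control means 4.93, 5.04 and 6.16 CPM and their placebo CDH means 7.27, 7.44 and 8.76 CPM, with no overlap between exposed and control libraries in any of the 3. The sixth was lowest in exposed CDH lungs too (3.49 ± 1.246 CPM, SD, n = 3, against 4.32 ± 0.943 CPM, SD, n = 2, in controls), with overlap. The twelfth stood at 16.8 ± 2.01 CPM in placebo CDH and 11.2 ± 0.947 CPM after treprostinil (SD, n = 3 each) and 10.3 ± 0.0584 CPM in control lungs (SD, n = 2). In bulk lung RNA, a change in the number of cells of a type and a change of RNA per cell cannot be told apart.

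At these levels counting error alone covered part of the gaps. Exact 95% Poisson intervals of the 2 libraries facing each other across the gap did not overlap in 13 of the 21 IDs, 7 of the higher and 6 of the lower ones. For the eighth higher ID, as an example of an overlap, they ran from 5.17 to 8.60 CPM in placebo CDH replicate 2, the shallowest library, and from 4.01 to 6.13 CPM in control replicate 1. For ENSOCUG00000026348 they ran from 7.09 to 10.03 CPM in placebo CDH replicate 1 and from 3.67 to 5.49 CPM in exposed CDH replicate 1. These intervals cover counting error only. The rule chose the IDs by the distance between these same 2 libraries, so the count of 13 describes the choice and the depth. It is no support for the gaps, and no share over all IDs was counted beside it.

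In the fit across all IDs (edgeR quasi-likelihood test, 14507 IDs tested, Benjamini-Hochberg adjusted p under 0.05), 6 of the 12 higher IDs were called higher in placebo CDH than in control lungs, beside 0.841% of all IDs called in that direction, and 5 of the 9 lower IDs were called lower, beside 1.44%, which makes 11 of 21 beside 2.28%. Against placebo CDH, 7 of the 12 were called lower in exposed CDH lungs (1.08% of all IDs), and 3 of the 9 were called higher (0.345% of all IDs), which makes 10 of 21 beside 1.42%. The IDs were chosen on these contrasts, so the counts describe the choice and nothing is read from them. Both comparisons share the placebo CDH libraries. In 8 IDs both calls were made, in 5 only 1 of them, and in 8 neither, among them ENSOCUG00000015772, whose log2 differences of 2.35 (standard error 0.66) against control and -2.22 (standard error 0.56) for exposed against placebo CDH were the largest among the higher IDs. For ENSOCUG00000026348 the log2 differences were 1.43 (standard error 0.29) and -1.62 (standard error 0.26), and both were called. For ENSOCUG00000026762 they were -8.07 and 8.10 and for ENSOCUG00000025982 -6.89 and 7.03, also called. The standard errors of this pair came out at 0.14 each. That is below the counting error of 12 to 35 placebo CDH counts per library, so these standard errors are too small. The counts of calls moved with single libraries. Without placebo CDH replicates 1, 2 and 3 the calls against control numbered 5, 5 and 7, without exposed CDH replicates 2 and 3 they numbered 7 and 5, and without control replicates 1 and 2 they numbered 4 and 3. For exposed against placebo CDH the numbers were 5, 2, 6, 3, 2, 4 and 4 in the same order. Without exposed CDH replicate 1 they were 13 and 8. Calls over all IDs moved too. Against control they numbered 182, 90, 443, 235, 193, 57 and 50 in that order, beside 331 with all libraries, and for exposed against placebo CDH 91, 57, 175, 60, 43, 83 and 90, beside 206. Without exposed CDH replicate 1 they were 359 and 185.

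The rule kept exposed and control means less than 25% apart, but the data do not place most members that close to control. The median log2 difference of exposed CDH from control was -0.09 for the higher and -0.11 for the lower IDs, against 0.01 over all 14507 IDs, and 0 of the 21 were called in the edgeR fit, beside 7.77% of all IDs. At an unadjusted p under 0.05 it was 1, with no share over all IDs counted. DESeq2 called 1, beside 1755 of 14117 IDs. Low counts follow from the rule, which keeps these 2 means close. Intervals of this difference come from the same values that chose the IDs. Their midpoints are held near equality, so 95% is nominal and the interval counts describe the choice too. The 95% interval of the difference stayed within 20% below and 25% above control for only 1 ID, ENSOCUG00000026762 (0.876 to 1.20-fold). For 20 it reached past 1 of these limits, and for 9 past 1.5-fold. The median standard error was 0.162 for the higher and 0.157 for the lower IDs, beside 0.139 over all 14507 IDs. Both medians of the members were thus above that of all IDs. The share of all IDs with an interval inside the limits was not counted. Whether wide intervals are particular to the members was therefore not tested. The interval of ENSOCUG00000015772 ran from 0.412 to 2.92-fold and that of ENSOCUG00000026348 from 0.555 to 1.39-fold. The eighth lower ID was the 1 whose interval left out equality: its exposed level was 0.714 to 0.919 of control, with a log2 difference of -0.30 (standard error 0.08). It is also 1 of the 7 IDs in which exposed and control libraries did not overlap.

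**Figure D4:**
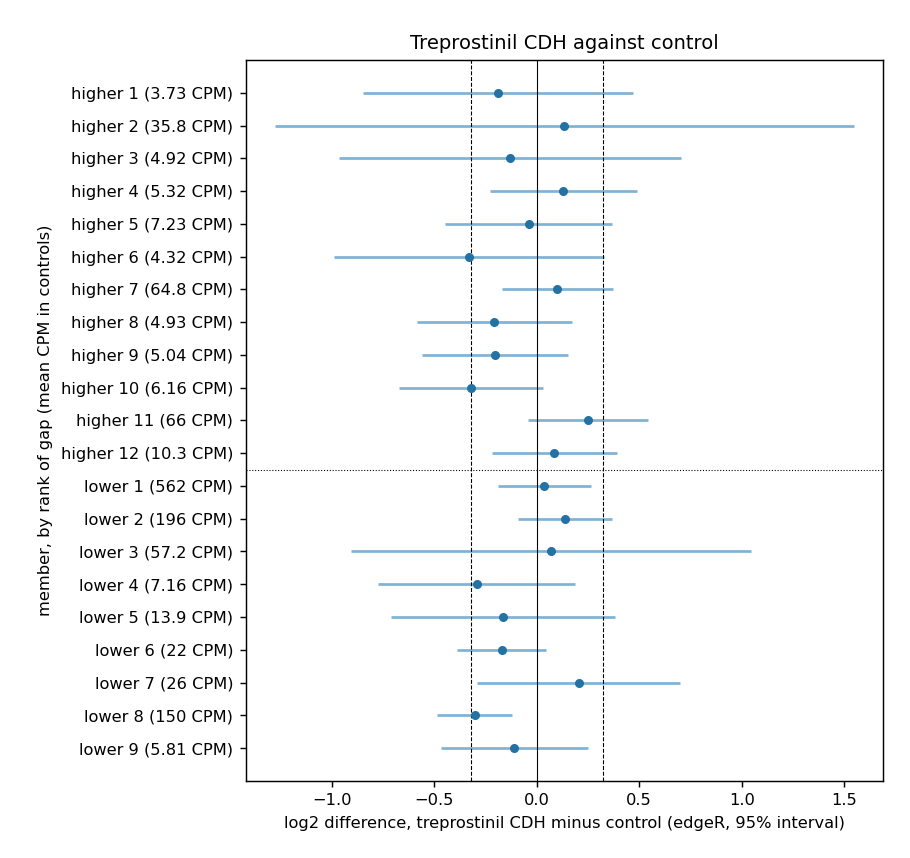
The log2 difference of treprostinil CDH from control for each of the 21 members, in the order of the plot of levels, with its 95% interval from the edgeR fit; dashed lines mark an excess of 25% in either group. All points lie between or close to the dashed lines, which the choice of members requires up to a difference in library scaling, and 20 of the 21 intervals reach past a dashed line.

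Exposed CDH lungs lay between placebo CDH and control in 10 of the 21 IDs (5 higher and 5 lower) and beyond control in 11 (7 higher and 4 lower). Libraries of exposed CDH and control lungs did not overlap in 7 of the 21 IDs (4 higher and 3 lower). Among all 8623 IDs with exposed and control means less than 25% apart, 36.4% did not overlap, a share near that of the members.

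The spread within groups was summarised by the CV. Its median over the 21 was 9.18% for placebo CDH libraries, 8.83% for exposed CDH libraries and 6.07% for controls, beside 8.66%, 7.37% and 5.62% over all 11437 IDs. Placebo CDH replicate 3, the 1 library of code 56, was above the mean of the 2 libraries of code 61 in 8 of the 21 IDs and below it in 13, with a median ratio of 0.963. The ratio was furthest from 1 in ENSOCUG00000015772, at 0.476. The edge of the placebo group was set by replicates 1, 2 and 3 in 3, 5 and 4 of the higher and in 4, 2 and 3 of the lower IDs.

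The choice was repeated with each library left out, and the IDs chosen were then read in that library. With placebo CDH replicate 1 left out, the other 7 libraries chose 43 IDs, of which 21 (48.8%) showed the gap in replicate 1 as well. With replicate 2 left out it was 21 of 33 (63.6%). With replicate 3 left out, it was 21 of 85 (24.7%). In each case the 21 are the members, as the rule over 8 libraries requires, so the shares show how many more IDs the other 7 libraries would have let in. The shares of all IDs at 5 CPM or more with that library outside the range of the 5 other libraries by the same gap, in either direction, were 3.81%, 3.34% and 2.38%. The 85 IDs chosen without replicate 3 rest on placebo CDH libraries of code 61 alone, and replicate 3 carries code 56. It lay outside the range of the 5 other libraries, on the same side, in 50 of the 85 (58.8%), while replicates 1 and 2 did so in 81.4% and 81.8% of the IDs chosen without them. Over all IDs at 5 CPM or more, either side was counted, which is a looser measure. The library left out then lay outside that range in 30.7% for replicate 3 and in 35.8% and 33.5% for replicates 1 and 2.

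The same was done for each exposed and control library. The gap held in the library left out for 19 of 32, 20 of 27 and 22 of 35 IDs for exposed CDH replicates 1 to 3, and for 19 of 37 and 17 of 24 IDs for control replicates 1 and 2. Over all IDs the shares, counted in either direction, were 6.43% to 9.38% for exposed and 10.4% and 8.23% for control replicates. IDs chosen with 1 library left out share the other 7 libraries, and the share over all IDs is not restricted to IDs that stand apart in those 7. No test was made of these shares.

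**Figure D5:**
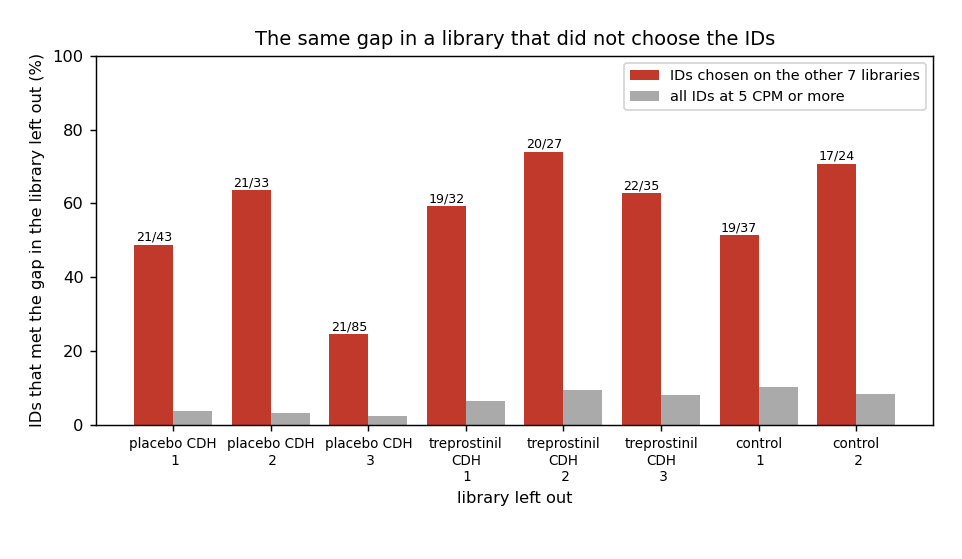
Red bars give the percent of IDs that met the gap in a library that had not been used to choose them, with the counts. Grey bars give the percent of all IDs at 5 CPM or more that met it in either direction. Each of the 8 libraries was left out in turn. The red bar is lowest for placebo CDH replicate 3, at 24.7%, and lies above the grey one for each library. Chosen IDs already stand apart in the libraries used to choose them, and the grey bars are not restricted to such IDs. For placebo CDH libraries, the IDs that met the gap are the members, as the rule requires. The distance between red and grey bars is therefore no support for the gaps.

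Several members sat close to a threshold. The higher IDs just inside the gap had ratios of 1.26 and 1.28 and those just outside 1.24 and 1.23. On the lower side the ratios were 1.254 and 1.26 inside and 1.24 and 1.23 outside. Exposed and control means were 1.24-fold and 1.22-fold apart just inside the limit and 1.27-fold and 1.29-fold apart just outside. The highest group mean was 5.81 and 7.16 CPM for the least abundant members and 4.25 and 4.16 CPM for the nearest IDs left out. With library totals that leave out the run of 37 IDs, which changes the CPM of placebo CDH lungs most, 15 higher and 6 lower IDs met the rule, so the higher share was 71.4% in place of 57.1%. Of the 21, 18 remained, and the 3 lost were the seventh, the eighth and the ninth lower IDs. With TMM-scaled library sizes 11 higher and 8 lower IDs met the rule, 17 of them among the 21. Under both scalings and with each library left out in turn, 9 of the 21 met the rule throughout: 6 higher IDs (the fourth, the fifth, the seventh, the eighth, the ninth and the twelfth) and 3 lower ones, ENSOCUG00000026762, ENSOCUG00000025982 and the third. Leaving out a library cannot narrow a gap, and all 21 were kept without any single placebo CDH replicate, so the 9 are no tested core. The eighth higher and the third lower ID were called in neither comparison with placebo CDH lungs. Poisson intervals overlapped across the gap in the eighth, the ninth and the twelfth higher ID.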

How the data were processed

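The deposited values were raw counts per gene ID in 8 lung RNA-seq libraries, with no normalization by the authors. The submitters' processing notes name Trimmomatic 0.36, STAR 2.5.2b, DESeq2 and the build OryCun2.0. No source used here gives the counting program, annotation release or strand setting, so overlapping, antisense or near-identical genes may share or lose reads. Groups came from the sample titles. The 21 IDs and all lists, tests and alternatives were chosen with earlier results of these data known. CPM used column sums. IDs to name were the 2 with the widest gap per direction; the others are given by rank of gap, and those described singly were chosen after their values were seen. Lists of marker and pathway genes could not be matched to the IDs and were not used. All IDs were fitted with edgeR 4.0.16 in R 4.3.3 (filterByExpr, TMM factors 0.973 to 1.03, 1 quasi-likelihood model of 3 groups, Benjamini-Hochberg adjustment over 14507 IDs per comparison). All 21 IDs passed the filter. Standard errors came from the F statistic and can be too small where a difference is very large. Alternatives were RLE factors, no filter, DESeq2 1.42.0, limma 3.58.1 with voom, fewer groups, a replicate block, other thresholds and each library left out. Added after seeing the data were fits and totals without the run of 37 IDs.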

Additional observations from a re-analysis of the deposited data

How the results depend on the processing

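The number of IDs that met the rule followed its thresholds: 101 with a gap of 1.1 and 7 with 1.5, 37 with a mean of 1 CPM and 9 with 20 CPM, and 8 with exposed and control means under 1.1-fold apart. Leaving out 1 library gave 24 (control replicate 2) to 85 (placebo CDH replicate 3). A likeness of 1.5-fold, TMM-scaled sizes and totals without the run left the number within 1.5 times of 21. Of the 21, 11 were called for placebo CDH against control and 10 for exposed against placebo CDH. RLE factors, no filter, limma voom and the fit without the run left these counts within 1.5 times. DESeq2 called 14 for placebo CDH against control, 18 for exposed against placebo CDH and 1 for exposed against control. Over all IDs it called 885 of 14878, 620 of 14878 and 1755 of 14117 in that order, beside 331, 206 and 1127 by edgeR. The cause was not tested. Only the groups compared, from fewer samples, gave 7, 4 and 1 in the order placebo CDH against control, exposed against placebo CDH, exposed against control. Calls over all IDs in these fits were 202 of 14213, 90 of 13986 and 1216 of 14550. With the number that ends a sample's name in its title (1 in CDH1) as a replicate block, the calls were 4, 2 and 0, while calls over all IDs fell to 94, 24 and 215. The main fit did not pair libraries by this number. Correlations of deviations from the group mean ran from -0.07 to 0.07 in the 8 pairs of libraries that share it. They ran from -0.11 to 0.07 in pairs that do not. The deviations of 2 controls mirror each other, so these correlations cannot decide whether libraries are paired. Leaving out 1 CDH library gave 5 to 13, 2 to 8 and 0 to 1 calls in that order. For exposed against control, calls over all IDs then ran from 444 to 1282. In fits without 1 library, a lone remaining control or the smaller group was assumed to vary like the others. The 8 IDs whose Poisson intervals overlapped across the gap were all among the 12 under 20 CPM.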
